A study of Mus musculus with 6 samples.

Results

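The 10 genes described here encode proteins that write, remove or read the RNA marks 5-methylcytosine (m5C) and N6-methyladenosine (m6A), and they were chosen by name among the 17348 genes listed for the E13.5 mouse cortex. They are the m5C writer Nsun2, the m5C reader and export adaptor Alyref, the m6A writer subunits Mettl3, Mettl14 and Wtap, the m6A erasers Fto and Alkbh5, and the cytoplasmic m6A readers Ythdf1, Ythdf2 and Ythdf3. RNA was sequenced from cortices in 3 samples labelled WT and 3 labelled cKO, all at E13.5. In the study's methods the cKO carries the Nestin-Cre transgene and Ybx1 fl/fl, in which exons 3 to 8 of Ybx1 are removed in neural progenitors and their progeny. Its control genotype is Ybx1 fl/fl without Cre, while the labels give only WT, and whether a library holds 1 embryo or a pool is not stated. The replicates are described as biological and as sequenced in 3 batches, without a record of which libraries shared a batch.

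m5C is placed on tRNAs and mRNAs by Nsun2 and on a smaller set of mRNAs by Nsun6, and it is bound by Alyref in the nucleus and by Ybx1, the gene deleted here, mainly in the cytoplasm. m6A is placed on nascent mRNA by a complex around the heterodimer of Mettl3 and Mettl14, and it is removed by Fto and Alkbh5. The Ythdf proteins bind m6A in the cytoplasm and act in mRNA decay and translation. In the embryonic cortex m6A is known for its part in the cell cycle of radial glia and in the timing of neurogenesis, and loss of Nsun2 is known to cause microcephaly. The comparison of cKO with WT asks whether the mRNAs of the other proteins of these pathways changed where the m5C reader Ybx1 was deleted.

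The libraries held 15907491 to 16282929 estimated counts, so a count of 0 allows up to 0.184 to 0.189 CPM (counts scaled to equal library size; counting error only). Values per library are given below in the order of replicates 1, 2 and 3. All 8 markers of cortical progenitors and all 7 of cortical neurons were detected in every library. Ybx1 (Entrez gene 22608, chr4:119277981-119294604 in GRCm38) reached 1021, 528 and 1220 CPM in WT and 83.1, 117 and 147 CPM in cKO. Of the 50-base stretches of the Ybx1 transcript, 25.1% also occurred in other annotated genes such as Gm11560, so part of its reads is uncertain. The genotypes did not overlap, but the library labelled WT replicate 2 held an intermediate level, below WT replicates 1 and 3 and above all of cKO. The log2 fold change of Ybx1 was -2.998 ± 0.33 (SE, n = 3 per genotype), with an adjusted p of 0.128 in edgeR's quasi-likelihood test, and without that library it was -3.28 with an adjusted p of 0.0206. In cKO replicate 3, the summed level of 4 epidermis markers was 273 TPM (transcript shares, scaled for length and to equal sums), against 0.03 to 0.34 TPM in the others. That of 7 meninges and mesenchyme markers was 287 TPM against 4.69 to 7.55. Of these 7, Col1a1, Col1a2, Col3a1, Dcn, Lum and Twist1 were highest in that library, while Foxc1 was not raised (18 counts against 14 to 40). The summed level of 7 interneuron markers was 221 to 231 TPM in cKO and 92.6 to 145 TPM in WT. Taken singly in CPM, Sst, Gad1 and Dlx5 were separate between the genotypes, while Dlx1, Dlx2, Gad2 and Lhx6 overlapped. The part of these markers in the values below was not tested, and the calls were repeated without both of these libraries.

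All 10 genes were expressed, and their mRNA levels were close in the 2 genotypes. With TMM-normalised counts, 0 of 10 differed between cKO and WT at an adjusted p under 0.05 in edgeR's quasi-likelihood test, beside 0% of the 13340 genes tested (0 genes, and 4 by DESeq2). At an unadjusted p under 0.05 the count was 0 of 10, beside 3.57% of all tested genes (476), and every adjusted p was 0.99995. That background count itself depended on single libraries, with 239 genes without WT replicate 3 and 1053 without cKO replicate 1. DESeq2 and limma-voom also called 0 of the 10. The log2 fold change was positive for 6 genes and negative for 4, where 50.8% of all tested genes were positive. The median log2 fold change of the 10 was 0.03 and the median size of the change was 0.03, while over all tested genes the median size was 0.08. The 10 genes also varied less between libraries of a genotype, with a median SD of 0.08 on the log2 scale against 0.14 over all tested genes. Neither sizes nor SDs were compared with genes of like level, and the 10 lay at 37.6 to 193 CPM. The median SD was also 0.07 for 12 listed genes of mRNA export, and 0.10 for all 58 other genes listed for RNA modification and export. In none of the 10 were the genotypes separate, while 9.04% of all tested genes had every cKO library above (4.21%) or below (4.83%) every WT library. In bulk tissue, fewer cells of a type and less RNA per cell cannot be told apart, so these values describe the whole cortex sample.

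**Figure D1:**
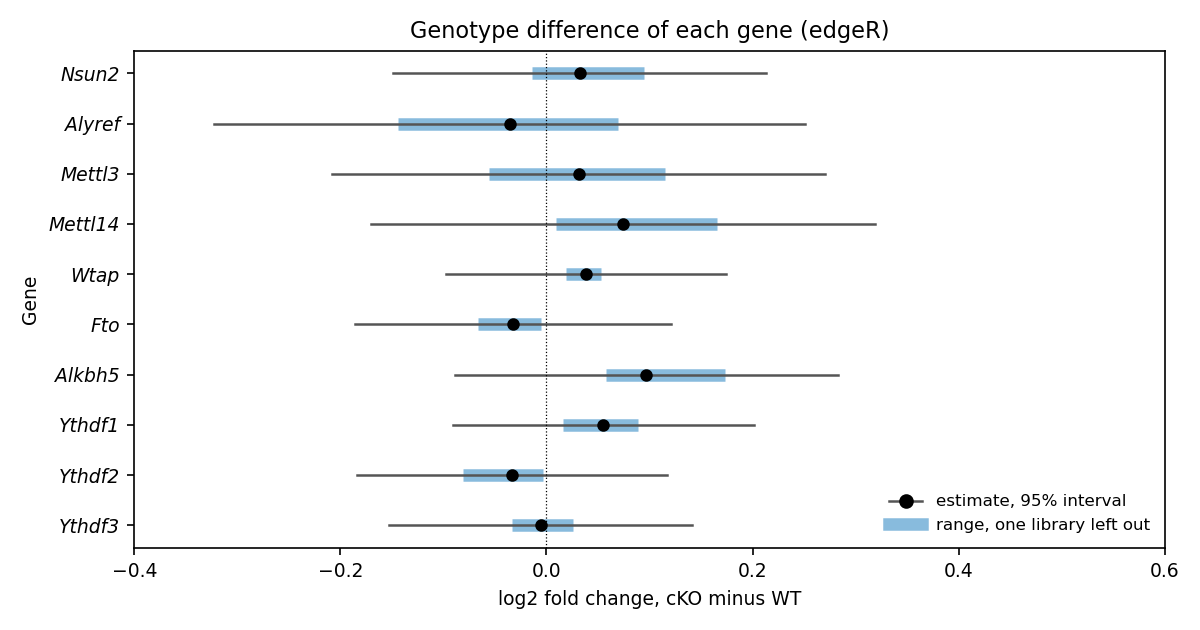
Log2 fold change of each of the 10 genes, cKO minus WT, with its 95% interval (grey line) and the range of estimates when each of the 6 libraries was left out in turn (blue bar), from edgeR with 3 libraries per genotype. All 10 intervals hold 0, and they reach from -0.32 (Alyref) to 0.32 (Mettl14).

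The intervals give the size of change these libraries allow. All 10 of the 95% intervals hold 0, and together they run from a log2 fold change of -0.32, or -20.0%, to 0.32, or 24.8%. The narrowest was that of Wtap, from -6.53% to 12.8%, and the widest that of Alyref, from -20.0% to 19.0%. From the estimate to either end, the interval spanned 0.14 on the log2 scale for Wtap and 0.29 for Alyref, beside a median of 0.26 over all tested genes. These intervals are not adjusted for the number of genes and are no limits of detection. In this edgeR fit with all 6 libraries, Ybx1 did not pass the adjusted threshold either. It did pass under DESeq2 and with replicate number as a further term in edgeR.

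The m5C writer Nsun2, whose mark Ybx1 reads, was at the same level in both genotypes within its error. Nsun2 (Entrez gene 28114, chr13:69533746-69635780, plus strand) measured 93.2, 103.0 and 104.9 CPM in WT and 94.7, 105.4 and 107.7 CPM in cKO. Replicate 1 was the lowest library in both genotypes, and the genotypes overlapped throughout. The log2 fold change of Nsun2 was 0.03 ± 0.08 (SE, n = 3 per genotype), with a 95% interval from -0.15 to 0.21. Of the 50-base stretches of its transcript, 8.87% also occurred in Gm17108, an annotated transcript of the opposite strand at chr13:69610498-69614901, which lies inside the Nsun2 locus, and for which no value was used here. Nsun6, the other m5C writer of mRNA that the study depleted in culture, was lower, at 10.2 TPM on average against 53.3 TPM for Nsun2. Its log2 fold change was -0.01 with a 95% interval from -0.21 to 0.18. By the root mean square difference of centred log2 CPM over the 6 libraries, the genes closest to Nsun2 were Tfb2m (0.016), AW209491 (0.021) and Xrn2 (0.022), where the median gene stood at 0.152. They were picked as the smallest distances among all tested genes, so values far below the median follow from the search.

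Alyref, which hands spliced mRNA to the export receptor and binds m5C in the nucleus, varied most between libraries. Alyref (Entrez gene 21681, chr11:120592121-120598365, minus strand) measured 78.6, 98.5 and 96.3 CPM in WT and 76.4, 101.6 and 88.7 CPM in cKO. Replicate 1 was again the lowest of each genotype, and the highest of the 6 was cKO replicate 2. The highest library was 1.33 times the lowest, the widest such span of the 10 genes. The log2 fold change of Alyref was -0.04 ± 0.12 (SE, n = 3 per genotype), and without cKO replicate 1 its estimate was 0.07.

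The m6A writer complex was measured by its catalytic subunit Mettl3, by Mettl14, which shapes the RNA-binding groove of the heterodimer, and by Wtap, which brings the heterodimer to nuclear speckles. Mettl3 (Entrez gene 56335, chr14:52294841-52305128, minus strand) measured 41.1, 44.2 and 38.3 CPM in WT and 37.6, 47.0 and 41.7 CPM in cKO. The lowest and the highest library were both cKO. Its log2 fold change was 0.03 ± 0.10 (SE, n = 3 per genotype). Mettl14 (Entrez gene 210529, chr3:123368297-123386108, minus strand) measured 41.6, 50.2 and 46.6 CPM in WT and 42.8, 52.2 and 50.7 CPM in cKO. Replicate 1 was the lowest in both genotypes, as for Nsun2 and Alyref. Its log2 fold change was 0.07 ± 0.11 (SE, n = 3 per genotype). Wtap (Entrez gene 60532, chr17:12966796-12994169, minus strand) measured 131.2, 135.4 and 133.0 CPM in WT and 136.3, 140.1 and 133.9 CPM in cKO. It was the steadiest of the 10 genes, with 1.07 times between its lowest and highest library, and its log2 fold change was 0.04 ± 0.06 (SE, n = 3 per genotype). Copies such as Gm14292 share 18.1% of the 50-base stretches of the Wtap transcript, so part of its reads is uncertain.

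The 2 partners of the heterodimer were present at similar levels per length. The level of Mettl14 was 0.844 times that of Mettl3 in TPM on average over the 6 libraries, with a range of 0.750 to 0.902. Mettl14 was thus the lower in every library per length, while in CPM, not scaled for length, it was the higher in every library. The order therefore depends on the gene lengths used for TPM. The Mettl3 value also depends on how reads were shared with a neighbouring gene, as given below. The log2 ratio of Mettl14 to Mettl3 was -0.27 ± 0.13 in WT and -0.22 ± 0.07 in cKO (SD, n = 3 per genotype; exact two-sided permutation test, p = 0.7). Wtap was 2.05 times as high as Mettl3 in TPM, with a range of 1.89 to 2.33. The log2 ratio of Wtap to Mettl3 was 1.03 ± 0.09 in WT and 1.04 ± 0.16 in cKO (SD, n = 3 per genotype; exact two-sided permutation test, p = 1.0). With 3 against 3 libraries this test cannot go below 0.1, and 6 such ratios and shares were compared in all. Both estimates of the genotype difference changed sign when 1 library was left out, to -0.026 for Mettl14 without WT replicate 1 and to -0.085 for Wtap without cKO replicate 1. By the distance used for Nsun2, the genes closest to Mettl3, picked in the same way, were Zbtb25 (0.029), Ift20 (0.031) and Hey1 (0.031). The closest of the other 9 genes was Mettl14 (0.090).

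The value of Mettl3 rests on how reads were shared with a neighbour. Mettl3 was the only one of the 10 genes whose estimated counts were not whole numbers, while the counts of the other 9 were whole in every library. In GENCODE M21, the gene Tox4, which encodes an HMG-box DNA-binding protein, lies on the opposite strand (Entrez gene 268741, chr14:52279146-52296401), and its exons overlap those of Mettl3 over 933 bases. Of the 50-base stretches of the Mettl3 transcript with the longest coding sequence, 13.8% also occurred on a strand of Tox4 transcripts, all between bases 1658 and 2025 of its 2025 bases. That stretch holds the end of the Mettl3 coding sequence, and its last 30 bases (chr14:52294982-52295011 in GRCm38, minus strand) are shown because reads from them belong to either gene unless strand is used in counting, with the stop codon in capitals.
Mettl3: ggcatcatctctaaacctaagaatttaTAG
The estimated counts of Mettl3 were 654.93, 713.44 and 612.50 in WT and 602.29, 749.40 and 691.92 in cKO. Added to those of Tox4, they gave whole numbers in 6 of 6 libraries, within a tolerance of 0.005: 2424, 2507 and 2619 in WT and 2448, 2610 and 2596 in cKO. Fractional counts in all 6 libraries were found for 1319 genes. In a search over all 17348 genes, with a wider tolerance than for the sums, only Tox4 completed Mettl3 in every library. The next best gene did so in 2. Mettl3 took 23.4% to 28.7% of the sum. The log2 fold change of Tox4 was -0.004, and that of the sum was 0.0055, an analysis chosen after the data were seen. Whether the counting used strand is not given in the sources used here.

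**Figure D2:**
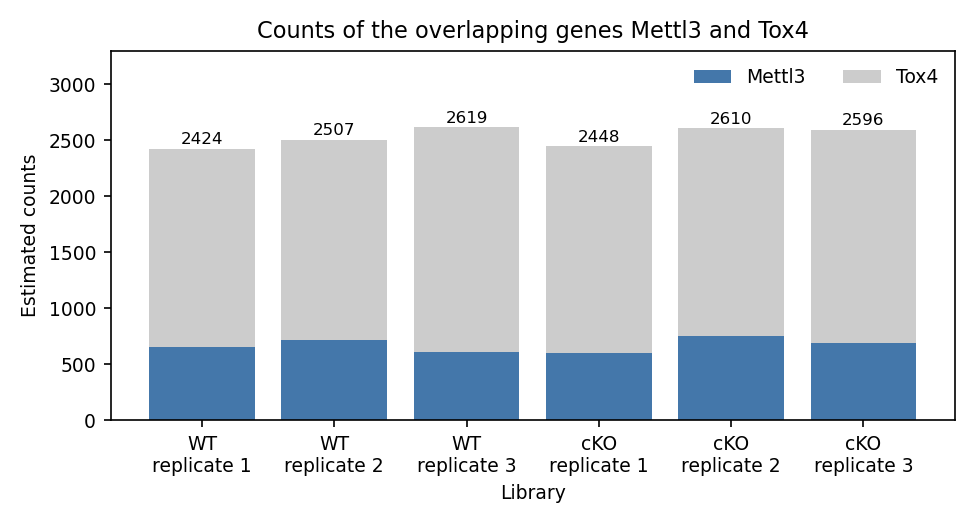
Estimated counts (linear axis from 0) of Mettl3 (blue) and of its antisense neighbour Tox4 (grey) in each of the 6 libraries, stacked, with the sum above each bar. The sums are whole numbers from 2424 to 2619, and Mettl3 takes 23.4% to 28.7% of them.

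The estimates for the m6A erasers Fto and Alkbh5 had opposite signs, and neither passed the test. Fto (Entrez gene 26383, chr8:91313525-91668439, plus strand) measured 149.2, 138.8 and 148.3 CPM in WT and 141.6, 148.4 and 136.4 CPM in cKO. Its log2 fold change was -0.03 ± 0.07 (SE, n = 3 per genotype), and the libraries of both genotypes were interleaved. Alkbh5 (Entrez gene 268420, chr11:60536381-60558512, plus strand) measured 104.4, 102.2 and 100.6 CPM in WT and 115.8, 115.2 and 97.6 CPM in cKO. Here cKO replicates 1 and 2 lay above all WT libraries, and cKO replicate 3, the library with epidermis markers, lay below them. Its log2 fold change was 0.10 ± 0.08 (SE, n = 3 per genotype), the largest of the 10 genes, with an interval from -0.09 to 0.28. Without cKO replicate 3 it was 0.17, with an unadjusted p of 0.0492 that did not hold after adjustment over all genes in edgeR's test. The level of Fto was 2.39 times that of Alkbh5 in TPM, with a range of 2.14 to 2.59. The log2 ratio of Fto to Alkbh5 was 1.32 ± 0.06 in WT and 1.19 ± 0.10 in cKO (SD, n = 3 per genotype; exact two-sided permutation test, p = 0.2, adjusted over the 6 comparisons 0.4).

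The Ythdf readers are close relatives, so their sequences were compared before their values. The coding sequences of Ythdf1 and Ythdf2 were identical at 69.5% of aligned bases, those of Ythdf1 and Ythdf3 at 70.4%, and those of Ythdf2 and Ythdf3 at 70.9%. The longest run of identical bases was 22 between Ythdf1 and Ythdf2 and 17 for each of the other pairs, and the longest run found in all 3 genes was 13. The 30 coding bases around that run are shown because they hold the longest stretch common to all 3 readers, from coding base 126 in Ythdf1, 45 in Ythdf2 and 48 in Ythdf3, with capitals for the 19 bases identical in all 3.
Ythdf1: tagtcattTACAAAATGGTTCttTgCATCA
Ythdf2: aaacaaagTACAAAATGGTTCtgTgCATCA
Ythdf3: agtttcagTACAAAATGGTTCgaTtCATCA
No 50-base stretch of the Ythdf1 or Ythdf3 transcript occurred in another annotated gene. Of those of Ythdf2, 8.55% also occurred in Gm6823 or Gm8401, for which no value was used here.

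Ythdf1, best known for promoting translation of m6A-marked mRNA, measured 103.1, 102.1 and 104.1 CPM in WT and 106.8, 112.7 and 101.9 CPM in cKO (Entrez gene 228994, chr2:180904377-180920949, minus strand). Its highest and its lowest library were both cKO, and its log2 fold change was 0.06 ± 0.06 (SE, n = 3 per genotype). Ythdf2, which recruits the deadenylase complex to m6A-marked mRNA, measured 118.3, 115.7 and 114.6 CPM in WT and 111.3, 120.7 and 108.6 CPM in cKO (Entrez gene 213541, chr4:132184912-132212303, minus strand). Of its cKO libraries, 2 lay below all WT libraries and 1 above them, and its log2 fold change was -0.03 ± 0.07 (SE, n = 3 per genotype). Ythdf3, which acts together with the other Ythdf proteins, measured 185.0, 188.7 and 188.3 CPM in WT and 188.3, 193.3 and 178.3 CPM in cKO (Entrez gene 229096, chr3:16183212-16217037, plus strand). Its log2 fold change was -0.01 ± 0.06 (SE, n = 3 per genotype), the smallest in size of the 10 genes.

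Within a library, the share of each reader in the summed Ythdf level does not depend on depth. Ythdf1 made up 34.1%, 33.8% and 34.4% of the summed TPM in WT and 35.2%, 35.3% and 35.1% in cKO. Every cKO library lay above every WT library. The mean share was 34.1% ± 0.29 in WT and 35.2% ± 0.09 in cKO (SD, n = 3 per genotype), a difference of 1.14 percentage points, and the exact two-sided permutation test gave p = 0.1, the smallest it can give, or 0.4 after adjustment over the 6 comparisons. The share of Ythdf2 was 29.2% ± 0.48 in WT and 28.4% ± 0.43 in cKO (exact permutation test, p = 0.2), and that of Ythdf3 was 36.7% ± 0.43 and 36.3% ± 0.47 (p = 0.5). The difference for Ythdf1 lay between 1.0 and 1.29 percentage points when each library was left out in turn, 1.19 without cKO replicate 3. A threshold of 0.05 was out of reach for these shares, as the test cannot go below 0.1. The interneuron marker sum was also separate between the genotypes, and its part in the Ythdf1 share was not tested.

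**Figure D3:**
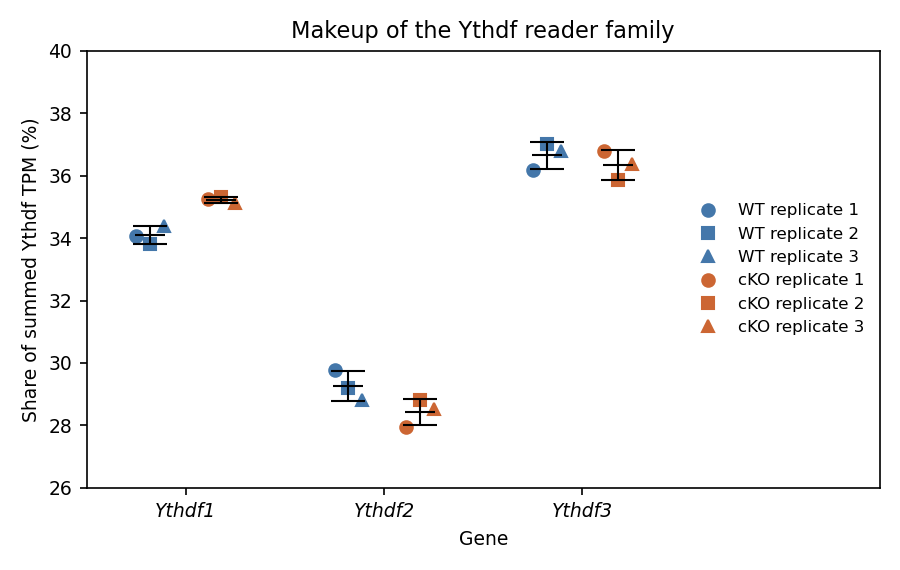
Share of Ythdf1, Ythdf2 and Ythdf3 in the summed Ythdf level (percent of summed TPM, axis from 26 to 40) in each of the 3 WT and 3 cKO libraries, with mean and SD as black bars. For Ythdf1 the cKO libraries lie at 35.1% to 35.3% and the WT libraries at 33.8% to 34.4%, while the genotypes overlap for Ythdf2 and Ythdf3.

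Compared per length, the 10 genes covered a wide range of levels in this tissue. Alyref was the highest, at 221 TPM on average over the 6 libraries (range 195 to 241), above 95.8% of the genes listed. Its place rests on the gene length used for TPM, which is not given in the sources used here. Not scaled for length, Alyref averaged 91.1 CPM in WT, below Ythdf3 at 187 and Fto at 145 CPM. Wtap followed at 103 TPM, Fto at 92.3, Ythdf3 at 80.5, Ythdf1 at 76.5 and Ythdf2 at 63.6 TPM. Nsun2 stood at 53.3 TPM, Mettl3 at 50.3, Mettl14 at 42.3 and Alkbh5 at 38.8 TPM, the last still above 71.2% of the genes listed. The ranges over the 6 libraries overlapped between Wtap and Fto, between Ythdf3 and Ythdf1, and for each step from Nsun2 down to Alkbh5. Within single libraries, in TPM, Wtap was above Fto, Ythdf3 above Ythdf1 and Mettl3 above Mettl14 in 6 of 6. Nsun2 was above Mettl3 in 4 of 6 and Mettl14 above Alkbh5 in 4 of 6.

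**Figure D4:**
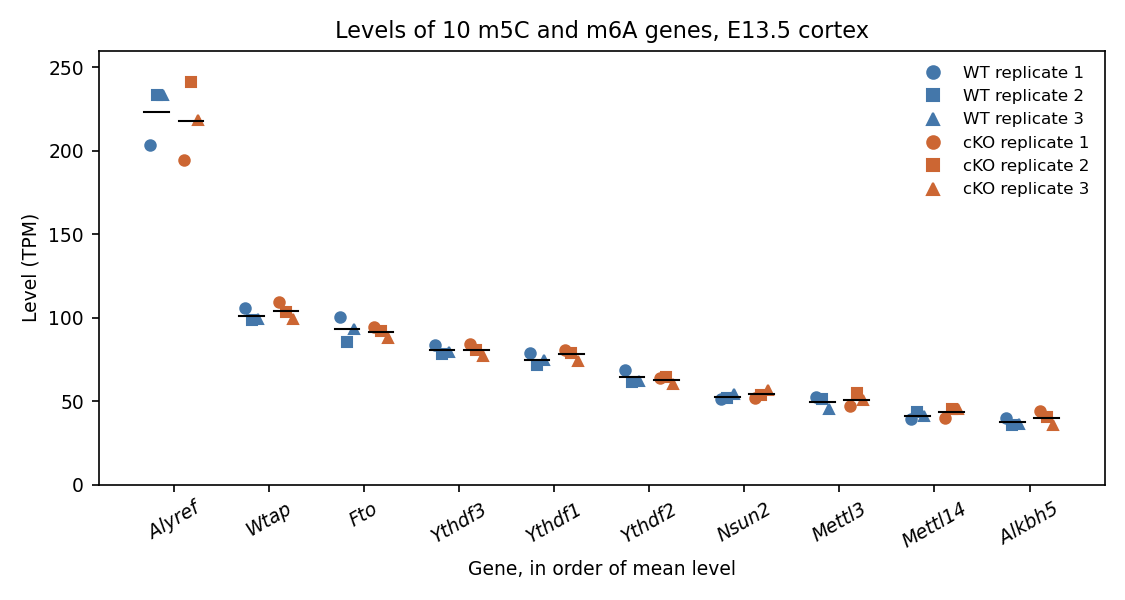
Level in TPM (linear axis from 0) of the 10 genes in order of their mean, with a point per library (blue WT, orange cKO, 3 each) and a bar at each genotype's mean. Alyref lies at 195 to 241 TPM, the other 9 between 35.8 and 110 TPM, and the genotypes overlap in each gene.

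The other genes of these pathways likewise gave no call. Of 59 further genes listed for RNA modification and mRNA export, 58 were in the table and tested, and 0 were called at an adjusted p under 0.05 or at an unadjusted p under 0.05 in edgeR's test, beside 3.57% of all genes for the latter. Their median log2 fold change was 0.02, with 33 positive and 25 negative. Among the 7 other m5C writers, 0 were called and the median was -0.03, and the value farthest from 0 was that of Nsun7, -0.32 ± 0.23 (SE), a gene at only 5.71 CPM in WT. Among the 10 other m6A writers and writer partners, 0 were called and the median was -0.03. The m6A scaffold Virma measured -0.12 ± 0.09 and Zc3h13, which holds the complex in the nucleus, -0.08 ± 0.07, while Trmt112, the partner of the 18S rRNA methyltransferase Mettl5, measured 0.15 ± 0.08 on the log2 scale (SE, n = 3 per genotype). Among the 10 other m6A readers 0 were called, with 5 positive and 5 negative, and the nuclear reader Ythdc1 measured 0.07 ± 0.08. The 4 enzymes that oxidise m5C, Tet1, Tet2, Tet3 and Alkbh1, lay between -0.07 and 0.04, and the 3 other m5C readers, Fmr1, Srsf2 and Lin28b, between 0.02 and 0.09, none of them called.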

How the data were processed

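The authors deposited 1 table of 17348 genes. Its estimated counts were deposited without normalisation, its TPM values are transcript shares that the authors scaled for length and to equal sums, and its FPKM values were scaled by the authors for length and depth. The submitters' processing notes name HISAT2 2.2.1, Bowtie2 2.4.5, RSEM 1.3.1 and GRCm38 (mm10), and the study names the DNBSEQ platform. The annotation and the use of strand are not given in the sources used here. A further 6 columns of genotype averages were not used.

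Estimated counts (10.9% not whole) were rounded. filterByExpr (minimum count 10, minimum total 15) kept 13340 genes, and genotype was the only term in edgeR 4.0.16 (R 4.3.3) with TMM factors and Benjamini-Hochberg adjustment over all tested genes. A call needed an adjusted p under 0.05. The SE came from the F statistic and the 95% interval from the total degrees of freedom. The fit was tested on simulated data. At most 1.66% of tested genes had equal counts in 2 libraries, so no library was a copy of another. Ratios and shares were computed from TPM and tested by exact permutation in scipy 1.17.1. Alternatives were other factors, other filters, DESeq2 1.42.0, limma 3.58.1 (voom, and log2 of TPM with a pseudocount of 1), a replicate block, libraries left out and, chosen after seeing the data, Mettl3 and Tox4 summed. Loci come from GENCODE M21, whose build matches, and the transcript with the longest coding sequence was used for each gene.

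The 10 genes, the pathway lists and the markers were chosen with earlier results of these data known. The rule for names took the 10 genes, Ybx1, Nsun6, pathway genes at an unadjusted p under 0.05, and the 3 genes closest to Nsun2 and to Mettl3. Other genes are named after their values were seen.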

Additional observations from a re-analysis of the deposited data

How the results depend on the processing

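Of the 10 genes 0 were called, in either direction, under any of the 16 alternatives, and likewise 0 of the 58 other pathway genes. Over all genes, DESeq2 called 4 where edgeR called 0, the replicate block called 2, and 2 were called without WT replicate 2 and again without both WT replicate 2 and cKO replicate 3. At an unadjusted p under 0.05, 1 of the 10 (Alkbh5) passed without cKO replicate 3. Of the 58 others, 1 higher and 1 lower passed with the replicate block, and 1 higher without WT replicate 2, without cKO replicate 1 and without cKO replicate 3. Over all genes that count was 476, 1090 with the replicate block, 246 without both doubted libraries, and 239 to 1053 with 1 library left out. Ybx1 passed the adjusted threshold under DESeq2 (-2.996, adjusted p = 5.46e-10), the replicate block (-2.95, 0.0381) and without both libraries (-3.49, 0.0188), and lay between -3.28 and -2.75 with 1 library left out. Signs turned for Ythdf3 (0.0073 with upper-quartile factors, 0.018 with library totals, 0.032 without both libraries, -0.033 to 0.025 with 1 left out), Nsun6 (0.00011, 0.011, and -0.051 to 0.015), Alyref (0.025 without both, -0.14 to 0.070), Nsun2 (-0.014 to 0.095) and Mettl3 (-0.056 to 0.11). The genotype difference, cKO minus WT, in the log2 ratio of Mettl14 to Mettl3 ranged from -0.026 to 0.107 with 1 left out. The same difference in the log2 ratio of Wtap to Mettl3 ranged from -0.085 to 0.066. The cause was not tested. Library totals moved the median of all genes by at most 0.026. To look for pairs, each gene's mean log2 CPM in a genotype was subtracted from its libraries, and these deviations were correlated between the genotypes. Deviations of same-numbered libraries correlated at 0.406, 0.310 and -0.020, and those of differently numbered ones at -0.434 to 0.263. Deviations sum to 0 within a genotype, so some negative correlations must occur. These values do not settle whether the numbers mark pairs, so the replicate block was kept as an alternative to the main fit. With the replicate block the difference in the Ythdf1 share was 1.14 percentage points. An exact permutation of the signs of the 3 differences within replicate numbers gave p = 0.25, the smallest it can give. Counts of 602 to 3082 lay behind each value of the 10 genes, and 372 to 411 behind Nsun6.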

Other observations

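The proteins that work beside Alyref in mRNA export were measured as a list of 12 genes of the transcription and export complex and its partners. At an adjusted p under 0.05 in edgeR's test 0 were called, 9 log2 fold changes were positive and 3 negative, and the median was 0.04. In Poldip3, an export adaptor, every cKO library lay above every WT library (131 ± 2.16 against 126 ± 3.60 CPM, log2 fold change 0.06 ± 0.06), and in Thoc2, the scaffold of the complex, every cKO library lay below (196 ± 5.28 against 211 ± 7.57 CPM, log2 fold change -0.10 ± 0.06). Of 12 tested genes for other RNA marks, 0 were called, with 8 positive, 4 negative and a median of 0.02. Trmt61a, the catalytic subunit for m1A in tRNA, lay lower in every cKO library (15.9 ± 0.61 against 17.6 ± 0.74 CPM, SD, n = 3 per genotype, log2 fold change -0.14 ± 0.09). These 3 genes, named after their values were seen, are the only 3 of the 58 whose genotypes did not overlap, where 9.04% of all tested genes did not.

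Of the 10 genes, 8 had a promoter entry in RefSeq (GRCm38.p6), with 10 promoter windows among them. Of these, 3 belong to Wtap, and 2 of these 3 overlap almost entirely and hold the same CCAAT, so the 10 are not separate promoters. All 10 windows of 300 bases had over 50% G and C and a ratio of observed to expected CpG over 0.6, as did 33.3% of the 32851 promoters in that table. The letters CCAAT occurred on either strand in 50% of them and in 37.4% of all promoters.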
